A study of Homo sapiens with 6 samples.

Results

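To see how the apparatus that senses microbial products behaved when interleukin-1β (IL-1β) was silenced in oral cancer cells, the Toll-like receptors, their co-receptors and their adaptors were examined in Cal27, a permanent cell line from a human squamous carcinoma of the tongue. The genes were CD14, LY96, TLR1, TLR2, TLR3, TLR4, TLR6, TICAM1, TIRAP and TRAF6. Members were all probe sets (groups of short probes for 1 transcript) whose platform annotation gave exactly 1 symbol from these 10 genes. There were 20 such probe sets of 54675 on the array, or 10 of 19775 genes with a single symbol. All Cal27 cells carried a lentiviral short hairpin RNA and had been selected with puromycin at 2 µg/mL for 2 weeks. In LV-shIL-1β cells the hairpin was directed against IL-1β, and in LV-shNC cells it was a scramble shRNA. Each group held 3 arrays (Affymetrix Human Genome U133 Plus 2.0), and no source used here states that they came from separate cultures, so the p-values reflect the spread among these arrays alone, and that spread may be technical. Only 1 hairpin sequence per group was used, in a single cell line.

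Toll-like receptors are membrane proteins that recognise conserved microbial molecules. TLR2, paired with TLR1 or TLR6, senses bacterial lipoproteins, TLR3 senses viral RNA in endosomes, and TLR4 senses lipopolysaccharide together with its partner LY96 (MD-2) and the lipopolysaccharide carrier CD14. Inside the cell most of these receptors signal through MyD88, which TIRAP bridges to TLR2 and TLR4, while TLR3 uses TICAM1 (TRIF), and TRAF6 is a ubiquitin ligase on which these branches and that of the IL-1 receptor converge. The receptors share their intracellular TIR domain with the IL-1 receptor, and keratinocytes of the skin and oral mucosa express several of them.

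The oligonucleotides that define the groups are shown because both are self-complementary hairpins that differ only in the stem. Capitals mark the sense arm of the stem, which spans 20 bases by complementarity and is followed by the loop.
shIL-1β: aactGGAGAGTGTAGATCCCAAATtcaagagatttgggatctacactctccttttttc
scramble shRNA: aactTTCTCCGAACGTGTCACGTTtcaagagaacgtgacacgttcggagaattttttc

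The target of the hairpin was lower, with a signal of 1578 ± 15.8 in LV-shIL-1β and 2594 ± 92.6 in LV-shNC for IL1B on its brighter probe set (SD, n = 3, linear intensity), a fold of 0.609. Median signals per array lay between 18.4 and 18.7 in LV-shIL-1β and between 18.6 and 18.9 in LV-shNC. Of 10 squamous epithelial markers, 7 had a probe set of their own and all 7 lay above the filter described next, KRT5, KRT14 and DSP among them. Of 8 markers of monocytes, macrophages and dendritic cells on the array only CD86 lay above it, and of 7 markers of other leukocytes 0 did. Among signs of RNA quality, log2 ratios between 3′ and 5′ probe sets overlapped for ACTB (0.33 to 0.44 in LV-shIL-1β, 0.30 to 0.55 in LV-shNC) and not for GAPDH (0.02 to 0.05 in LV-shIL-1β, -0.06 to 0.01 in LV-shNC), and the part of this in the results was not tested.

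A probe set was kept for testing when at least 3 of the 6 arrays exceeded a signal of 18.6, the median of all deposited values. Of the 20 member probe sets 12 were kept, and these represented 7 of the 10 genes. LY96, TLR1 and TLR4 had no kept probe set. Of the 12, 3 were higher in LV-shIL-1β and 0 were lower (limma, Benjamini-Hochberg adjusted p under 0.05 over 27546 kept probe sets), against a background of 7.06% of kept probe sets called in either direction, 3.68% called higher and 3.37% called lower. In the fit with no filter 2 of the 20 were called, CD14 and TIRAP 1552360_a_at, against 2.74% of all probe sets. These 3 were the single probe set of CD14, 1 of 3 for TLR3 and 1 of 4 for TIRAP. The TIRAP probe set entered the test only through the LV-shIL-1β arrays, in which it was high, so the count is a description of the members. The median log2 fold change of the kept members was 0.06, against 0.01 for all kept probe sets, and their fold changes ran from -0.12 to 0.51. At a fold over 1.5 with unadjusted p under 0.05, the threshold closest to that in the study's methods, 0 of the 20 member probe sets passed (limma, no filter), while 4 had an unadjusted p under 0.05. The background at that threshold was 0.472% of 54613 probe sets.

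**Figure D1:**
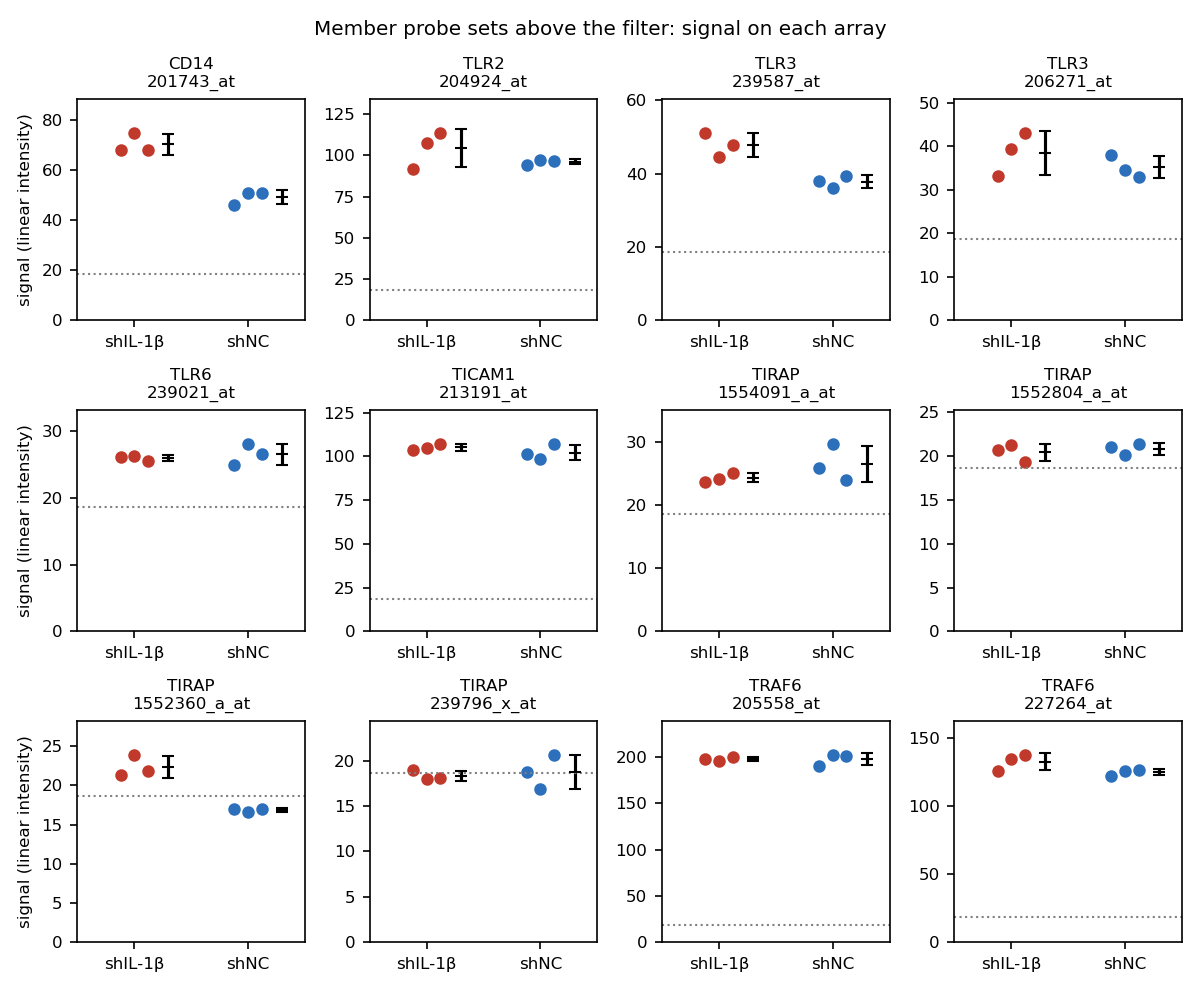
Signal on each array (vertical axis, linear intensity, starting at 0) of the 12 kept member probe sets, with LV-shIL-1β in red and LV-shNC in blue; each point is 1 array, black marks give mean and SD, and the dotted line is the filter at 18.6. CD14, TLR3 239587_at and TIRAP 1552360_a_at are the panels in which all red points lie above all blue points.

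The co-receptor CD14 showed the largest difference among the kept members. Its probe set 201743_at had signals of 68.1, 75.1 and 68.0 in LV-shIL-1β, against 46.3, 51.1 and 51.0 in LV-shNC. All 3 LV-shIL-1β arrays lay above all 3 LV-shNC arrays, and the gap between the groups was wider than the range within either. The means were 70.4 ± 4.07 in LV-shIL-1β and 49.5 ± 2.76 in LV-shNC (SD, n = 3). The log2 fold change was 0.51 ± 0.08 (SE), with a Benjamini-Hochberg adjusted p of 0.00453 in limma. This was a rise of 42.3%, with a 95% confidence interval of the fold from 1.26 to 1.60. The call held whichever array was left out, with log2 fold changes of 0.46 to 0.53 and limma's Benjamini-Hochberg adjusted p of at most 0.0298. It was lost with the methods' t-test followed by Benjamini-Hochberg adjustment over all kept probe sets, at an adjusted p = 0.0706 with the same direction. In RNA from a whole culture, more cells with CD14 and more CD14 RNA per cell cannot be told apart.

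CD14 is best known on monocytes and macrophages, so their markers were set beside it. The summed signal of the 8 markers of monocytes, macrophages and dendritic cells ranged from 91.2 to 99.3 in LV-shIL-1β and from 104 to 109 in LV-shNC, but 7 of the 8 lay below the filter and were not tested, and their part in the result for CD14 was not tested. The 1 marker tested, CD86, did not pass. CSF1R, the macrophage growth factor receptor, averaged 16.7 ± 0.895 in LV-shIL-1β and 18.7 ± 2.70 in LV-shNC (SD, n = 3). The integrin chain ITGAM averaged 11.1 ± 1.52 in LV-shIL-1β and 13.1 ± 0.483 in LV-shNC, and the lysozyme gene LYZ 4.38 ± 0.293 and 4.78 ± 0.285 in the same order. None of these 3 was kept. PTPRC, the pan-leukocyte antigen CD45, averaged 2.64 ± 0.284 in LV-shIL-1β and 2.68 ± 0.125 in LV-shNC.

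By pattern over the 6 arrays, the genes most like CD14 were SLC1A1, a glutamate transporter, with a Pearson r of 0.998, LEAP2, a liver-expressed peptide, at 0.997, and KLHL15, a ubiquitin ligase adaptor, at 0.995. Among 12312 candidate genes 261 had an r over 0.95 with CD14, so such likeness was common with 6 points of which 3 share a group, and it is given as a description.

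The other parts of the lipopolysaccharide receptor stayed below the filter on all 6 arrays. LY96, which binds lipopolysaccharide on TLR4, had signals of 10.7, 9.43 and 8.06 in LV-shIL-1β, against 6.31, 7.73 and 6.44 in LV-shNC. The groups did not overlap, but the gap between the closest values, 8.06 in LV-shIL-1β and 7.73 in LV-shNC, was smaller than the SD of either group (1.33 in LV-shIL-1β, 0.783 in LV-shNC). Its log2 fold change was 0.46 ± 0.13 (SE), which did not pass in the fit without a filter (limma, Benjamini-Hochberg adjusted p = 0.108). On the log2(signal + 16) scale the difference shrank to 0.15.

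TLR4, the signalling receptor for lipopolysaccharide, was measured by 4 probe sets, all below the filter on every array. The signals of 1552798_a_at were 8.61, 8.76 and 10.8 in LV-shIL-1β, against 8.90, 7.94 and 7.48 in LV-shNC, and the groups overlapped. On the other 3 the group means were 2.45 to 3.78 in LV-shIL-1β and 2.18 to 3.46 in LV-shNC. The log2 fold changes of the 4 lay between 0.13 and 0.21, and 0 passed in the fit without a filter, where the lowest limma Benjamini-Hochberg adjusted p of TLR4 was 0.422 and 0 of the 4 had an unadjusted p under 0.05. For 232068_s_at the groups did not overlap, at 2.49, 2.38 and 2.47 in LV-shIL-1β, against 2.05, 2.23 and 2.27 in LV-shNC, but only 4.13% of probe sets had a lower mean log2 signal than TLR4 on this one, and on the log2(signal + 16) scale its difference was 0.02. Signals this low give no measure of whether TLR4 was present.

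Among the receptors for bacterial lipoproteins, TLR2 was kept and did not pass. Its signals were 91.7, 108 and 114 in LV-shIL-1β, against 94.4, 97.4 and 96.6 in LV-shNC. LV-shIL-1β array 1 lay below all LV-shNC arrays and the other 2 above them, so the SD was 11.4 in LV-shIL-1β and 1.60 in LV-shNC. The log2 fold change of TLR2 was 0.11 ± 0.08 (SE, limma, Benjamini-Hochberg adjusted p = 0.466). Its 95% confidence interval, expressed as a fold, ran from 0.95 to 1.23, so a rise as large as that of CD14 (1.42-fold) lay outside it.

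Of the partners of TLR2, TLR6 was kept on 239021_at, with signals of 26.2, 26.3 and 25.6 in LV-shIL-1β, against 25.0, 28.2 and 26.6 in LV-shNC, which gave -0.03 ± 0.08 on the log2 scale (SE, adjusted p = 0.873 in limma). Its sign turned without LV-shNC array 2, at 0.013. The second TLR6 probe set, 207446_at, was below the filter on all arrays and averaged 14.0 ± 1.66 in LV-shIL-1β and 12.7 ± 0.887 in LV-shNC (SD, n = 3). TLR1, with the single probe set 210176_at below the filter, had signals of 10.6, 7.08 and 10.7 in LV-shIL-1β, against 8.60, 8.27 and 10.0 in LV-shNC. The groups overlapped on every probe set of TLR1 and TLR6.

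**Figure D2:**
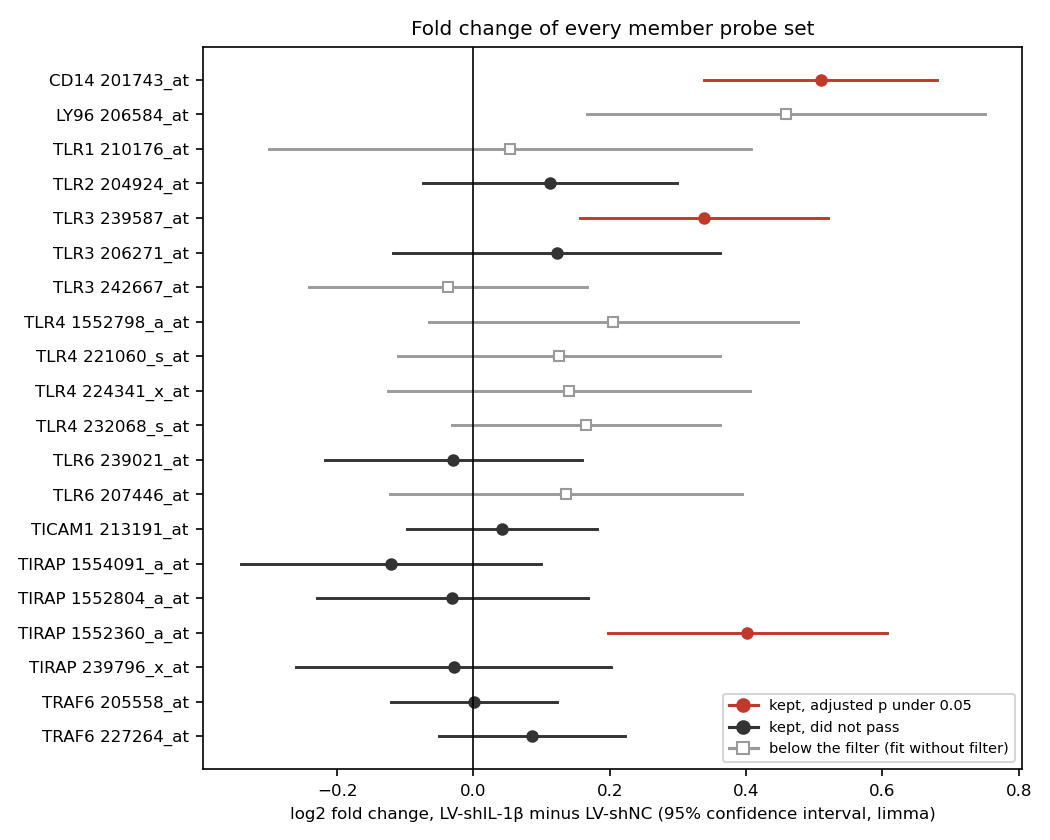
Log2 fold change of each of the 20 member probe sets (horizontal axis, positive where LV-shIL-1β is higher) with its 95% confidence interval from limma; red and black circles are kept probe sets that passed and did not pass the adjusted threshold, and grey open squares are probe sets below the filter, taken from the fit without a filter. CD14, TLR3 239587_at and TIRAP 1552360_a_at are the kept probe sets whose intervals leave out 0.

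TLR3, the receptor for double-stranded RNA, was called on 1 of its 3 probe sets. On 239587_at the signals were 51.2, 44.5 and 47.9 in LV-shIL-1β, against 38.0, 36.0 and 39.4 in LV-shNC, and the groups did not overlap. The means were 47.8 ± 3.36 in LV-shIL-1β and 37.8 ± 1.72 in LV-shNC (SD, n = 3). The log2 fold change was 0.34 ± 0.08 (SE), with a Benjamini-Hochberg adjusted p of 0.0367 in limma. This call was lost whichever of the 6 arrays was left out, with log2 fold changes of 0.29 to 0.39 and limma's Benjamini-Hochberg adjusted p of 0.0657 to 0.117, and also with no filter (0.0636). On 206271_at the signals were 33.1, 39.3 and 43.2 in LV-shIL-1β, against 38.1, 34.6 and 33.1 in LV-shNC. Here LV-shIL-1β array 1 lay among the LV-shNC arrays and the groups overlapped, at 0.12 ± 0.11 on the log2 scale (SE, adjusted p = 0.552 in limma). Array 1 of LV-shIL-1β was the highest of its group on 239587_at and the lowest on 206271_at. The difference between the 2 probe sets, compared array by array, was -0.32 ± 0.27 in LV-shIL-1β and -0.10 ± 0.14 in LV-shNC on the log2 scale (SD, n = 3, exact permutation p = 0.3, two-sided, Benjamini-Hochberg adjusted p = 0.48 over 8 pairs of probe sets). With 3 arrays a side the permutation test cannot go below p = 0.1, so it cannot decide whether the 2 probe sets differed. The third TLR3 probe set, 242667_at, was below the filter and averaged 3.56 ± 0.0707 in LV-shIL-1β and 3.65 ± 0.0989 in LV-shNC.

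The start regions of CD14 and TLR3 are shown because these genes carried a call and had an entry in the RefSeq promoter table of build GRCh38.p14, in which 7 of the 10 genes were matched. Each runs 5′ to 3′ on the gene's strand, from 250 bases before the annotated start to 20 bases after it. For CD14 (chr5:140633156-140633425, minus strand) capitals mark a match to the AP-1 motif TGANTCA, and for TLR3 (chr4:186068906-186069175, plus strand) a match, on the opposite strand and across the start, to the core of the interferon-stimulated response element, searched as GAAA, any 2 bases and GAAA.
CD14: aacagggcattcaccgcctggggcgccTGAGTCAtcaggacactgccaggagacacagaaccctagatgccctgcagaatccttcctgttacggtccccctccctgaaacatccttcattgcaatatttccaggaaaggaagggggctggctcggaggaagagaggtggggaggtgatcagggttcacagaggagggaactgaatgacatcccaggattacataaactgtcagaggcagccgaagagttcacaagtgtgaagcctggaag
TLR3: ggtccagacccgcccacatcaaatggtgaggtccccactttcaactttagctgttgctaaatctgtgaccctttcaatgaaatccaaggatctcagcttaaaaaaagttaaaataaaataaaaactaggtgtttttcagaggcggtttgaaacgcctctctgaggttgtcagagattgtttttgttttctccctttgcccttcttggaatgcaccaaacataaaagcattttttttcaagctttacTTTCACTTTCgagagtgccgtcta

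Both strands were searched in windows of 270 bases. The AP-1 motif was found in 1 of the 7 members matched and in 7.12% of all 35116 windows, and the interferon element core in 1 of 7 and in 3.3%. The GC box GGGCGG was found in 5 of the 7 and in 43.7% of all windows. GAGGAA, the core bound by the myeloid factor PU.1, was found in 3, CD14 among them, and in 25.4%. The NF-kB motif was found in 1, TICAM1, and in 10.4%. In the sequences shown, the GAGGAA of CD14 (bases -96 to -91) and an opposite-strand GC box of TLR3 (-241 to -236) are left in lower case. These matches describe the letters in the windows and do not show that a factor was bound.

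Among the adaptors, TIRAP, which brings MyD88 to TLR2 and TLR4, had 4 kept probe sets, of which 1552360_a_at was called. Its signals were 21.3, 23.9 and 21.8 in LV-shIL-1β, against 17.0, 16.6 and 17.0 in LV-shNC, which came to 0.40 ± 0.09 on the log2 scale (SE, adjusted p = 0.0300 in limma). All 3 LV-shNC arrays lay below the filter and all 3 LV-shIL-1β arrays above it, so this probe set entered the test only through the group in which it was high. On the log2(signal + 16) scale its fold change was 0.22. It fell short of the threshold without LV-shIL-1β array 2 or 3 or any 1 of the LV-shNC arrays (limma, Benjamini-Hochberg adjusted p up to 0.120), but not without LV-shIL-1β array 1 (0.0455).

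The other 3 TIRAP probe sets did not pass and had fold changes of the opposite sign, which turned on 1552804_a_at and 239796_x_at when single arrays were left out. On 1554091_a_at the signals were 23.6, 24.1 and 25.0 in LV-shIL-1β, against 25.8, 29.7 and 24.0 in LV-shNC (log2 fold change -0.12 ± 0.10, SE). On 1552804_a_at they were 20.7, 21.2 and 19.4 in LV-shIL-1β, against 21.0, 20.1 and 21.4 in LV-shNC (-0.03 ± 0.09). On 239796_x_at, whose name marks it as open to cross-hybridisation, they were 19.0, 17.9 and 18.1 in LV-shIL-1β, against 18.8, 16.9 and 20.6 in LV-shNC (-0.03 ± 0.10). The groups overlapped on each of these 3, and the limma Benjamini-Hochberg adjusted p of TIRAP on them was 0.513 or above. Array by array, log2 signal of 1552360_a_at minus 1554091_a_at was -0.12 ± 0.095 in LV-shIL-1β and -0.64 ± 0.18 in LV-shNC (SD, n = 3). The exact permutation p was 0.1 (two-sided, Benjamini-Hochberg adjusted p = 0.267 over 8 pairs), as it was against 1552804_a_at and 239796_x_at. No lower p is possible in this test, so it cannot decide whether 1552360_a_at differed from them.

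**Figure D3:**
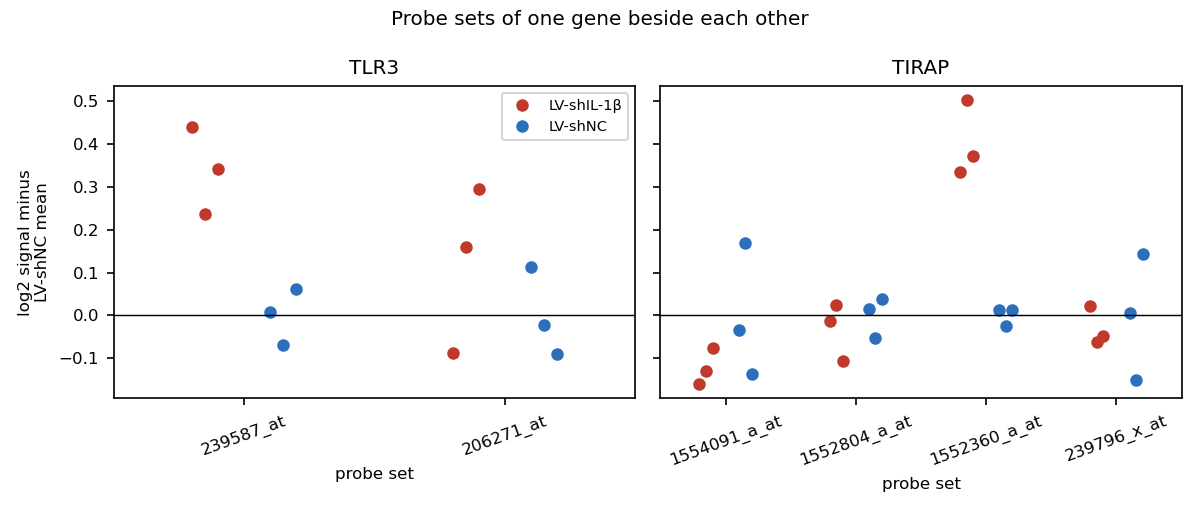
Log2 signal of each kept probe set of TLR3 and TIRAP minus its own LV-shNC mean (vertical axis) by probe set (horizontal axis), with LV-shIL-1β in red and LV-shNC in blue; each point is 1 array. For TLR3 the red points are clear of the blue ones on 239587_at and mixed with them on 206271_at, and for TIRAP they are clear on 1552360_a_at and mixed on the other 3.

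TICAM1, the adaptor of TLR3, did not pass and varied little between arrays. Its signals were 104, 105 and 107 in LV-shIL-1β, against 101, 98.3 and 107 in LV-shNC, and the log2 fold change was 0.04 ± 0.06 (SE, limma, Benjamini-Hochberg adjusted p = 0.739), with a 95% confidence interval of the fold from 0.935 to 1.13.

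TRAF6, which the Toll-like and IL-1 receptors share, did not pass on either of its kept probe sets. On 205558_at the signals were 198, 196 and 199.7 in LV-shIL-1β, against 190.01, 203 and 201 in LV-shNC, and the means were 198 in both groups. The log2 fold change was 0.00 ± 0.05 (SE), of no stable sign, with a 95% confidence interval of the fold from 0.920 to 1.09. On 227264_at the signals were 126, 134 and 138 in LV-shIL-1β, against 123, 126 and 126 in LV-shNC, or 0.09 ± 0.06 on the log2 scale (SE, adjusted p = 0.444 in limma). LV-shIL-1β arrays 2 and 3 lay above all LV-shNC arrays there, and array 1 among them.

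Over all 20 member probe sets, including those too low to be tested, the groups did not overlap for 5, all higher in LV-shIL-1β, and overlapped for 15. Over all 54613 probe sets that were not array controls, 20.2% did not overlap, with 9.86% higher in LV-shIL-1β on all 3 arrays and 10.4% lower. Among kept probe sets, where 3 of the 12 members did not overlap, the share was 27.9% in either direction and 15.3% higher. The 5 were the 3 called probe sets together with LY96 and TLR4 232068_s_at. A positive log2 fold change was found for 15 of the 20 and a negative one for 5, and the median was 0.12, against -0.01 for all probe sets. Among the 20 are 4 probe sets of TLR4 and 4 of TIRAP, which are not independent of each other.

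The rest of the pathway was described with 8 lists holding 87 genes, each gene by its brightest kept probe set. Of the 65 genes measured, 12 rose and 2 fell (limma, Benjamini-Hochberg adjusted p under 0.05 over all kept probe sets), against 8.53% of 12313 kept genes called in either direction, 4.03% higher and 4.5% lower. The median log2 fold change over the lists was 0.07, against 0.00 over all kept genes. The lists were chosen with earlier results of these data known, so the counts and the median are a description. Of 9 other Toll-like receptors and co-receptors on the array 2 were kept, and neither passed. TLR5, the flagellin receptor, had signals of 18.7, 14.4 and 17.5 in LV-shIL-1β, against 17.7, 20.6 and 18.8 in LV-shNC (log2 fold change -0.18 ± 0.12, SE). TLR7, TLR8, TLR9 and TLR10 were not kept, nor was LBP, which delivers lipopolysaccharide to CD14 and whose 2 probe sets had signals of at most 8.68 in LV-shIL-1β and 8.47 in LV-shNC.

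Among signalling proteins, MYD88, the adaptor of most Toll-like receptors, averaged 299 ± 7.01 in LV-shIL-1β and 305 ± 28.9 in LV-shNC (SD, n = 3, log2 fold change -0.02 ± 0.07, SE, of no stable sign). Neither TICAM2 nor IRAK4 had a probe set that listed its symbol alone. Of 14 measured kinases and ubiquitin enzymes, IRAK2 and TBK1 rose and 0 fell. IRAK2, a kinase that joins MyD88 to TRAF6, had signals of 240, 232 and 201 in LV-shIL-1β, against 141, 156 and 169 in LV-shNC (0.53 ± 0.09, SE, limma, Benjamini-Hochberg adjusted p = 0.00672), and its call held whichever array was left out but not with the methods' t-test (Benjamini-Hochberg adjusted p = 0.125). IRAK1, its relative, stood at 0.22 ± 0.06 (limma, Benjamini-Hochberg adjusted p = 0.0542). TBK1, a kinase of the TICAM1 branch, lay at the threshold, with signals of 286, 319 and 332 in LV-shIL-1β, against 258, 271 and 260 in LV-shNC (0.25 ± 0.06, SE, limma, Benjamini-Hochberg adjusted p = 0.0499), and was lost without LV-shIL-1β array 2 or 3 or any LV-shNC array (up to 0.182).

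Of 4 receptor folding and trafficking genes, HSP90B1, the chaperone gp96 that folds Toll-like receptors, fell. Its signals were 1396, 1412 and 1464 in LV-shIL-1β, against 1584, 1702 and 1593 in LV-shNC (log2 fold change -0.19 ± 0.04, SE, limma, Benjamini-Hochberg adjusted p = 0.0249), while its other kept probe set stood at -0.08 and did not pass. It did not pass without any 1 of the LV-shIL-1β arrays, nor without LV-shNC array 2 or 3 (up to 0.106). Of 11 negative regulators CYLD, a deubiquitinase that acts on TRAF6, rose (0.29 ± 0.07, SE, limma, Benjamini-Hochberg adjusted p = 0.0398), as did 3 of its 4 other kept probe sets, and this call too was lost without LV-shIL-1β array 2 or 3 or any LV-shNC array (up to 0.164). Of 9 genes listed as endogenous ligands 0 passed in limma's test after Benjamini-Hochberg adjustment. Whether each listed gene, HSPA4 among them, encodes such a ligand was not checked. In limma 1 had an unadjusted p under 0.05, FN1 (fibronectin) at 0.22, while the alarmins S100A8 and HMGB1 stood at 0.08 and 0.01. A dimmer kept probe set did pass for 3 of the listed genes. They were HSPD1 at 0.42 (adjusted p = 0.00725 in limma), HSPA4 at 0.33 (0.0232) and FN1 at 0.21 (0.0438). On their brightest probe sets HSPD1 stood at 0.01 and HSPA4 at -0.08. For HSPD1 the passing probe set averaged 77.0 in LV-shIL-1β and 57.5 in LV-shNC, against 7766 and 7706 on the brightest.

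**Figure D4:**
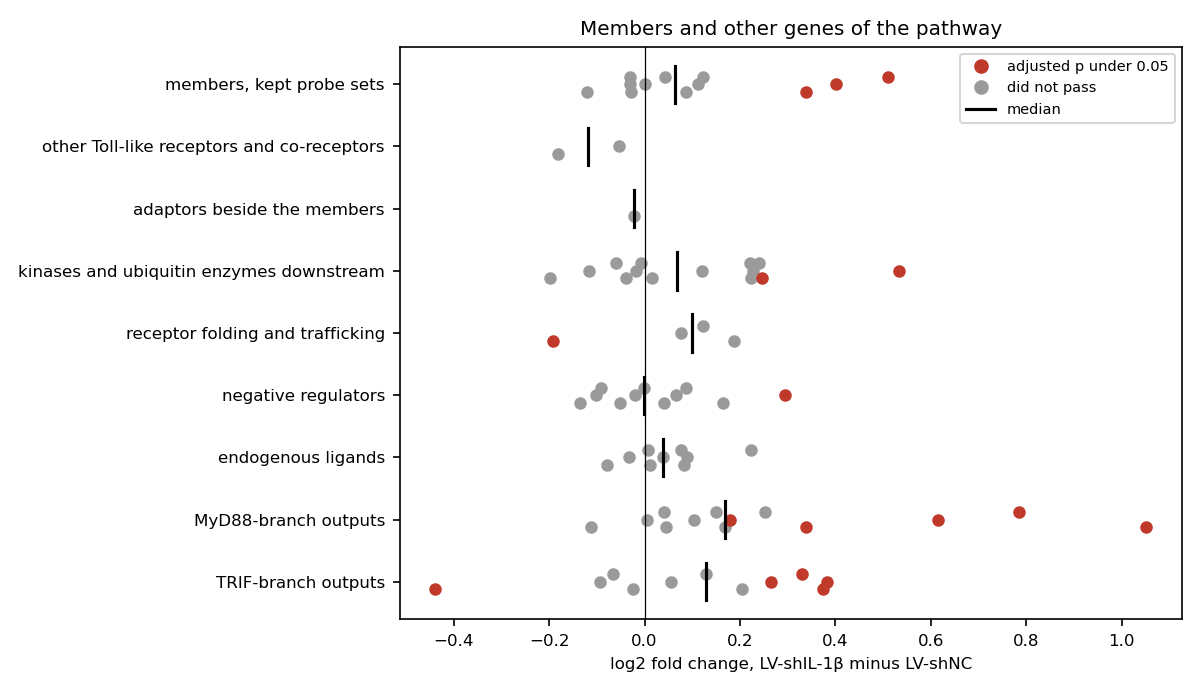
Log2 fold change (horizontal axis, positive where LV-shIL-1β is higher) of the kept member probe sets and of the genes of each pathway list, 1 point per probe set or gene; red points passed the adjusted threshold, grey ones did not, and the black bar is the median. Outputs of the MyD88 branch reach 1.05 with IL6, and CD14 stands at 0.51 among the members.

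Genes listed as outputs of the branches were described in the same way, from lists chosen with the same knowledge. Over all kept genes 4.03% were called higher and 4.5% lower, and the median log2 fold change was 0.00. Of 13 MyD88-branch outputs 5 rose and 0 fell, with a median of 0.17. The cytokine IL6 reached 1.05 ± 0.12, the chemokine CCL20 0.78 ± 0.05 and the chemokine CXCL2 0.61 ± 0.06 (log2 fold change, SE), and each call held whichever array was left out. With the methods' t-test and Benjamini-Hochberg adjustment CCL20 kept its call (adjusted p = 0.0289), and IL6 (0.0969) and CXCL2 (0.0540) lost it. PTGS2 (0.34) and IL1A (0.18) also rose, but PTGS2 was lost without any LV-shIL-1β array or without LV-shNC array 1 or 2, and IL1A without any 1 of the 6 arrays (limma, Benjamini-Hochberg adjusted p up to 0.123). TNF, NFKB1, NFKB2, RELB, ICAM1, CXCL1, CXCL3 and CXCL8 did not pass. Of 11 measured genes listed as TRIF-branch outputs 4 rose and 1 fell, with a median of 0.13. The 11 include IRF3, a transcription factor of the branch itself, at -0.02. The interferon-induced genes IFIT1 (0.38 ± 0.05, SE), IFIT2 (0.37 ± 0.10) and IFIT3 (0.27 ± 0.07) and the chemokine CXCL10 (0.33 ± 0.06) rose, and TNFSF10, the death ligand TRAIL, fell (-0.44 ± 0.09). Of these, IFIT1 kept its call whichever array was left out and lost it with the methods' t-test (Benjamini-Hochberg adjusted p = 0.0864). CCL5, a chemokine, did not pass on its brightest probe set (0.20, adjusted p = 0.177 in limma) and passed on its other kept one (0.46, adjusted p = 0.00572). CXCL10 lost its call without LV-shIL-1β array 2 or 3 or LV-shNC array 2. TNFSF10 lost it without LV-shIL-1β array 2 or 3 or LV-shNC array 2 or 3. IFIT2 lost it without any array but LV-shNC 2, and IFIT3 without any 1 of the 6 (limma, Benjamini-Hochberg adjusted p up to 0.110). A second kept probe set passed for IFIT2 (0.39, adjusted p = 0.0158 in limma) and IFIT3 (0.31, adjusted p = 0.00356 in limma). Of 2 other kept probe sets of TNFSF10, 1 passed (-0.43, adjusted p = 0.00938 in limma) and 1 did not (-0.22). Many of these outputs are also induced by signals other than Toll-like receptor ligands, cytokines among them, and which receptor they answered to was not measured.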

How the data were processed

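The authors deposited 1 linear intensity for each probe set of each array, measured from 6 µg of total RNA per labelling. MAS5 is named in the processing notes of the submitters, without a version, while its scaling settings and any step across arrays were not given in the sources used here. Detection calls were not used. Up to 1.17% of probe sets had exactly equal values in any 2 arrays, which a median-polish summary can give and MAS5 would seldom give, so it is unsure whether MAS5 alone made the values. Groups and replicate numbers came from the sample titles. Analysis used log2 of the signal as deposited. After removal of 62 array controls, 27546 of 54613 probe sets were kept. The limma package (3.58.1, R 4.3.3) gave the difference of LV-shIL-1β from LV-shNC by lmFit and a two-sided moderated test (eBayes, trend on mean signal), with Benjamini-Hochberg adjustment over all kept probe sets at a threshold of 0.05. Data were simulated from the kept probe sets of this comparison, with 200 changed in each of 10 runs. There the test recovered 19.6% of 1.25-fold, 80.2% of 1.5-fold and 99.2% of 2-fold changes, and 5.5% of its calls were false. The simulated noise was independent and normal, drawn from the variances that limma itself fitted, and 200 is fewer than the 1944 probe sets called here. These shares therefore describe the simulation and need not hold for the arrays. The platform annotation gave 41097 probe sets 1 symbol, 1801 several and 11777 none. For all 20 member probe sets the annotated gene identifier carried the same symbol in RefSeq, and probe sequences were not checked. Members and lists were chosen with earlier results of these data known. All members were named, with the targeted gene, up to 3 genes called per direction and list, and 6 further pathway genes. PTGS2, IL1A, IFIT3, FN1, HSPD1, HSPA4, CCL5 and the list genes that did not pass were added after their values were seen. With 3 arrays a side an exact permutation test cannot go below p = 0.1. The number of arrays limits the precision.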

Additional observations from a re-analysis of the deposited data

How the results depend on the processing

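The count of 3 member probe sets called was 3 with quantile normalization, median centring, a pseudocount of 16, array weights or no mean-dependent trend, and 2 with no filter or the stricter one. It was 0 with the methods' t-test after Benjamini-Hochberg adjustment (3 of the 12 at an unadjusted p under 0.05) and 1, CD14, with the replicate number as a block. Leaving out each array in turn gave 1 to 2. The count of pathway list genes, 14, was 9 with no filter, 7 without the mean-dependent trend, 2 with the methods' t-test (CCL20, and TNIP1, which limma did not call), 5 with the replicate block, and 5 to 12 with each array left out. The cause of these drops was not tested. The block cost residual degrees of freedom, and same-numbered arrays did not deviate together (correlations of -0.39, -0.11 and -0.21), so the numbers were not taken as pairs. Over all kept probe sets the calls with the block numbered 568, against 1944 without it. TRAF6 205558_at changed sign with quantile normalization (-0.019) and array weights (-0.0077), and ran from -0.028 to 0.018 with arrays left out. Under the same leave-outs, TLR6 239021_at ran from -0.073 to 0.013, TIRAP 1552804_a_at from -0.059 to 0.0059, TIRAP 239796_x_at from -0.10 to 0.042 and MYD88 from -0.097 to 0.041. LY96, below the filter, exceeded CD14 with quantile normalization (0.49 for each to 2 decimals) and without LV-shIL-1β array 3 (0.57 against 0.53) or LV-shNC array 2 (0.55 against 0.53). Scaling moved the median of all probe sets by less than 0.1 on the log2 scale.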

Other observations

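Of the 10 nearest measured genes of CD14 in the RefSeq order, 0 were called in either direction, and their median stood at -0.06 on the log2 scale (limma, Benjamini-Hochberg adjusted, each gene by its brightest kept probe set). Around TLR3, 8 measured neighbours had a median of -0.07, with 0 higher and 1 lower, and around TIRAP 10 had a median of 0.00, with 0 called in either direction.

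The squamous markers set beside the members included 3 genes that fell. The basal keratins KRT14 and KRT5 had log2 fold changes of -0.35 and -0.32, and the desmosomal plaque gene PKP1 of -0.40. The summed signal of the 7 squamous markers measured ranged from 15319 to 16665 in LV-shIL-1β and from 17832 to 19099 in LV-shNC, while DSP, EPCAM, CDH1 and DSG3 did not pass. The 8 fibroblast markers summed to 146 to 160 in LV-shIL-1β and 183 to 202 in LV-shNC, with 5 kept, 0 higher and 2 lower, COL1A2 and LUM, which both passed the filter only through the LV-shNC arrays, in which they were high. The 5 endothelial markers summed to 69.0 to 71.7 in LV-shIL-1β and 72.2 to 74.5 in LV-shNC, with 1 kept and 0 called by limma after Benjamini-Hochberg adjustment. No marker was listed at 0. Whether this bears on CD14 or TLR3 was not tested.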
